A study of Mus musculus with 12 samples.

Results

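The genes described here are 46 interferon-stimulated genes, among them 6 guanylate-binding protein (Gbp) genes and 5 genes of the immunity-related GTPases, measured by RNA-seq in mouse acute myeloid leukaemia cells. They were chosen by symbol, with earlier results of these data known, and all 46 were found among the 24881 gene entries used. Every library came from GFP+ leukaemia cells of MLL-AF9 transgenic origin that were sorted from bone marrow, with 1 mouse per library. The vehicle group held 5 mice, the iCT group held 3 mice sampled 3 days after the end of induction chemotherapy (doxorubicin and cytarabine), and the relapse group held 4 mice sampled 10 days after it. The sources used here do not give doses, mouse strain, age and sex, how the fusion gene was delivered, or whether the leukaemias shared a donor. Levels are FPKM, in which fragments are scaled to transcript length and library size. Differences are those of mean log2(FPKM + 1), so changes of low genes are understated. A gene was tested where its FPKM was at least 1 in at least 3 libraries. That held for 42 of the 46 members and for 11019 genes in all, and a gene is called higher or lower where its adjusted p (limma, Benjamini-Hochberg over all genes tested) was below 0.05. Mx1, Mx2, Ifi44 and Gbp9 did not pass the filter and have levels only.

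Type I interferons bind the receptor of Ifnar1 and Ifnar2, and the signal passes through Stat2 and Irf9, subunits of the transcription factor ISGF3. ISGF3 binds the interferon-stimulated response element in the promoters of antiviral genes such as the Ifit and Oas families. Interferon gamma binds the receptor of Ifngr1 and Ifngr2 and acts on genes through gamma-activated sites, and the Gbp genes and the immunity-related GTPases are classical targets of that branch in myeloid cells. Effector proteins of both GTPase families attack the membranes around intracellular microbes, while regulatory members such as Irgm1 guard self membranes.

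The promoters of the members show what they share in sequence. RefSeq promoters of GRCm38.p6 were matched to 34 members by symbol and searched on both strands, in the 250 bases before each start, for the response element (GAAA, any 2 bases, GAAA) and the gamma-activated site (TTC, any 3 bases, GAA). No entry was matched for Dhx58, Gbp6, Gbp9, Iigp1, Mx1, Mx2, Oas2, Parp14, Parp9, Rtp4, Usp18 and Zbp1. The response element was found in 16 of the 34 members (47.1%), against 3.46% of the 27025 genes with a promoter. The gamma-activated site was found in 9 of 34 (26.5%), against 8.13% of all genes, and 6 members held both. Of the 8 GTPase genes with a promoter 7 held the response element, against 9 of the 26 other members. The match is a description of letters, not of a bound site. The stretches below are shown as examples of where the matches lie, in GTPase genes (the first 6) and in antiviral effectors. They are printed 5′ to 3′ on the strand of the gene, and capitals mark the matches.
Gbp3 (chr3:142559954-142560033, plus strand): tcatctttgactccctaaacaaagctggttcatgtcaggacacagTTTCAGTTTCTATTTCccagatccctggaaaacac
Gbp2 (chr3:142620563-142620642, plus strand): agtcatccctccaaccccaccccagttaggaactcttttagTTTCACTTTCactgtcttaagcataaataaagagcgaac
Gbp7 (chr3:142530216-142530315, plus strand): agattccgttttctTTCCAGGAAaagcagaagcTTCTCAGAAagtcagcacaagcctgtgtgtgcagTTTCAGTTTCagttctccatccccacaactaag
Igtp (chr11:58199466-58199545, plus strand): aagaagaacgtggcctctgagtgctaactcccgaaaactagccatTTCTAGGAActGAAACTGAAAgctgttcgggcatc
Irgm2 (chr11:58214867-58214946, plus strand): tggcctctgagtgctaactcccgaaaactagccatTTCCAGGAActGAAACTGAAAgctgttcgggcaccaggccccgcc
Irgm1 (chr11:48871431-48871510, minus strand): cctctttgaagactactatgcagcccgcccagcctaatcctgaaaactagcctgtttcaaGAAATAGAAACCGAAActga
Ifit3 (chr19:34583349-34583438, plus strand): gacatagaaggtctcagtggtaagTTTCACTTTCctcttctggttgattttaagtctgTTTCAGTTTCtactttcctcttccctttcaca
Isg15 (chr4:156200859-156200938, minus strand): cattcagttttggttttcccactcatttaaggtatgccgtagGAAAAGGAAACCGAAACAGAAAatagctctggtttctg
Oas1a (chr5:120907526-120907635, minus strand): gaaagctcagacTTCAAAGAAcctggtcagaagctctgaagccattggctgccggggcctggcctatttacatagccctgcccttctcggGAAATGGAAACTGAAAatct
Of the stretches shown, Gbp3, Irgm1 and Oas1a hold 2 overlapping response elements each, and Isg15 holds 3 that overlap in a run. Gbp7, Igtp, Irgm2 and Oas1a hold both motifs in the stretch shown. The stretches of Igtp and Irgm2, which lie beside each other on chromosome 11, were identical at 68 of the 70 bases they share. Ifit2 held the gamma-activated site and no match to the response element in this window.

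The libraries differed in depth. The confidence intervals in the files implied 361914 fragments for iCT mouse 1 and 1225254 to 8359793 for the others. Among genes at 1 FPKM or more the median gene had 13.8 such fragments in iCT mouse 1 and 43.9 to 293 elsewhere, and these figures cover counting error only. The labelled cell type was checked with 10 leukaemia and progenitor genes, all of them found. Their summed FPKM, most of it from the granule genes Elane, Mpo, Prtn3 and Ctsg, was 13491 to 16591 in vehicle, 13574 to 18511 in iCT and 11542 to 16200 in relapse. Hoxa9 averaged 52.8, 63.7 and 57.7 in vehicle, iCT and relapse and was called in no comparison. In iCT against vehicle Kit (-1.79) and Cd34 (-1.69) were called lower and Ms4a3 (2.06) higher, and in relapse against iCT Kit and Cd34 were called higher and Ms4a3 and Ctsg lower. Genes listed as markers of other marrow cells moved with the groups, and whether leukaemia cells also made them was not tested. The 5 osteoclast genes summed to 10.8 to 26.5 in vehicle, 139 to 638 in iCT and 14.2 to 75.6 in relapse, with 4 called higher in iCT against vehicle and 4 called lower in relapse against iCT. Of these, Ocstamp and Dcstamp met the filter only through the iCT mice, the group where they were high. Of the 9 macrophage genes 6 were called higher and 1 lower in iCT against vehicle, and 1 higher and 6 lower in relapse against iCT. Among them Mrc1 likewise met the filter only through the iCT mice. The macrophage sums were 142 to 186, 152 to 280 and 101 to 123 in vehicle, iCT and relapse. Most of the vehicle sum was Adgre1 and Vcam1, with means of 80.3 and 63.6. Adgre1 was the 1 called lower in iCT, with a mean of 22.3, while C1qa rose from 4.87 to 43.6. The 5 monocyte genes summed to 2130 to 2341 in vehicle, 533 to 616 in iCT and 889 to 2009 in relapse, with 2 called lower in iCT. Most of this was Ly6c2, which averaged 2191, 520 and 1335. Of the 5 erythroid genes, which have 6 entries, 3 entries of the 4 tested were called lower in iCT, with sums of 14.9 to 289 in vehicle, 3.93 to 12.3 in iCT and 46.7 to 164 in relapse. Of cells known as interferon sources, the plasmacytoid dendritic genes (6 of 6 found) summed to 1.35 to 6.93 in vehicle, 1.55 to 16.6 in iCT and 1.02 to 3.85 in relapse, and Siglech, which defines them, averaged 0.329, 0.0644 and 0.165. The T and natural killer cell genes (7 of 8 found) summed to 19.2 to 30.3, 9.93 to 31.5 and 8.86 to 22, most of it Nkg7, while Cd3e averaged 0.293, 0.345 and 0.256. The part of these markers in the results below was not tested.

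In vehicle mice the members spanned a wide range of levels. The group mean was at least 1 FPKM for 42 members, at least 10 for 18 and at least 50 for only 1. Bst2, which encodes tetherin, a membrane protein that holds budding virus at the cell surface, was the most abundant at 135 ± 39.9 FPKM (SD, n = 5). Below it stood Oas1a at 40.9 ± 8.53, Ifi35 at 38.0 ± 9.40, Lgals3bp at 36.6 ± 17.2, Zbp1 at 34.2 ± 16.7 and Irgm1 at 33.2 ± 10.3, and neighbours in this order differed by less than their SDs. At the low end Mx1, Mx2 and Ifi44 had means of 0.249, 0.0837 and 0.126, and Mx2 was listed at 0 in 2 of the 5 vehicle mice.

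**Figure D1:**
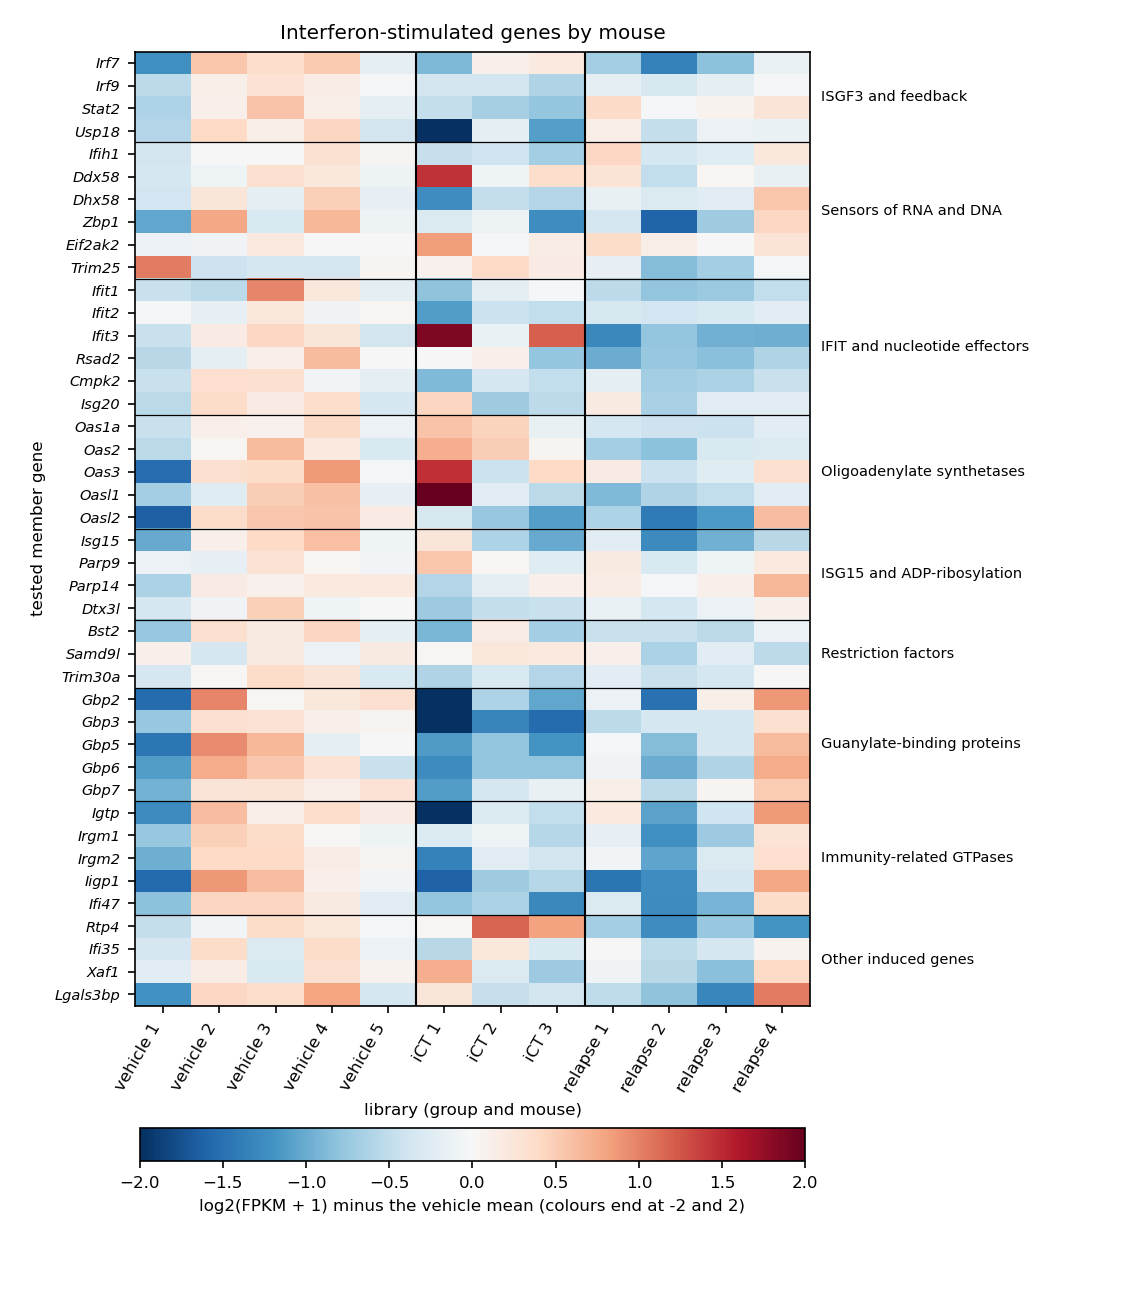
Each row is a tested member, ordered by role, and each column a library. Colour gives the deviation of log2(FPKM + 1) from the vehicle mean of the gene. The Gbp genes and immunity-related GTPases are low in vehicle mouse 1, in the 3 iCT mice and in relapse mouse 2, and high in relapse mouse 4.

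The members differed from mouse to mouse within a treatment more than most genes did. The median within-group SD of log2 values was 0.45 in vehicle for the 42 tested members, against 0.20 for all genes tested, and 0.34 against 0.16 in relapse. In these groups the 10 tested GTPase genes varied most, with 0.65 in vehicle and 0.69 in relapse, while the other 32 members had 0.37 and 0.27. In iCT the SDs were 0.41 for the members, 0.46 for the GTPase genes and 0.37 for all genes. Without the shallow iCT mouse 1 the members and all genes both had 0.20, and the GTPase genes had 0.15. Individual mice carried this spread, as read after the values were seen. Vehicle mouse 1 was the lowest of the 5 vehicle mice in 36 of 42 members and in 10 of 10 GTPase genes, a place it took in 35.9% of all genes. Relapse mouse 4 was the highest of the 4 relapse mice in 31 of 42 members and in 10 of 10 GTPase genes, against 35.3% of all genes. Relapse mouse 2 was the lowest in 32 of 42, against 28.1% of all genes. Not every member followed. Trim25, the ubiquitin ligase that activates RIG-I, was at 41.9 FPKM in vehicle mouse 1 and at 14.7 to 20.8 in vehicle mice 2 to 5.

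The median deviation of the 10 GTPase genes from their vehicle means was -1.05 in vehicle mouse 1 and 0.03 to 0.55 in vehicle mice 2 to 5. It was -1.31, -0.62 and -0.68 in iCT mice 1 to 3, and -0.09, -1.06, -0.34 and 0.57 in relapse mice 1 to 4. Vehicle mouse 1 lay within the iCT range, and so did relapse mouse 2, but the low end of that range was the shallow iCT mouse 1 alone. Both mice lay below iCT mice 2 and 3. For the other 32 members the medians were -0.46 in vehicle mouse 1 and -0.10 to 0.29 in the remaining vehicle mice, -0.47 to -0.15 in iCT and -0.53 to -0.07 in relapse. Sums of the genes listed as markers of other cells also set some of these mice apart. Vehicle mouse 1 had an erythroid sum of 14.9, with 118 to 289 in vehicle mice 2 to 5, and relapse mouse 4 had 164, with 46.7 to 86.6 in relapse mice 1 to 3. The neutrophil sum (7 of 7 genes found, none at 0) was 3620 in vehicle mouse 1 and 6584 to 13808 in vehicle mice 2 to 5. In relapse it was lowest in mouse 2, at 6199, against 8438 to 14690. In iCT the neutrophil sum was 12939 to 17231, and in relapse mouse 4 it was 8438. The erythroid sums of relapse mice 2 and 3 were 47.6 and 46.7. The part of these sums in the spread of the members was not tested.

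**Figure D2:**
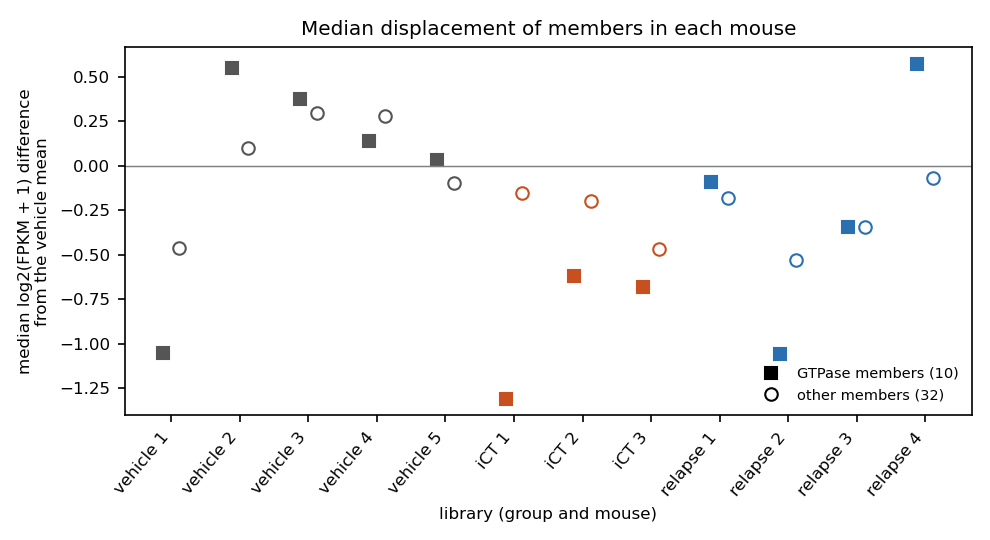
The vertical axis gives the median deviation of log2(FPKM + 1) from the vehicle mean, for the 10 tested GTPase genes and for the other 32 tested members, and each point is a library. Among the GTPase genes vehicle mouse 1 (-1.05) lies between the shallow iCT mouse 1 (-1.31) and iCT mice 2 and 3 (-0.62 and -0.68), while relapse runs from -1.06 to 0.57.

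The comparison of iCT with vehicle asks how the leukaemia cells left 3 days after chemotherapy differ from untreated ones. Gbp3 and Ifit2 fell, and no member rose. All 10 tested GTPase genes had lower mean log2 levels in iCT, and most of the other members did too. Of the 5 Oas genes 4 had higher ones, but 2 of 5 without iCT mouse 1. Of the 42 tested members 2 were called lower and 0 higher, where 6.31% of all genes tested were called lower and 3.31% higher. The direction was negative in 31 of 42 members (73.8%) against 58.2% of all genes, and the median change was -0.46 against -0.08. The median was -0.95 for the 10 GTPase genes and -0.23 for the other 32, and without the shallow iCT mouse 1 these were -0.71 and -0.35. At an unadjusted p below 0.05 limma gave 13 lower and 2 higher members, where 19.2% and 10.6% of all genes were. In 5 members (Ifih1, Dhx58, Ifit2, Dtx3l and Gbp3) every iCT mouse lay below every vehicle mouse, as in 10.6% of all genes, and in 0 members every iCT mouse lay above (5.49% of all genes). These are bulk libraries, so fewer cells of a type and less RNA per cell cannot be told apart. The counts rested on single mice. Without vehicle mouse 1 there were 5 lower members (Dtx3l, Gbp3, Gbp5, Irf9 and Stat2), where 5.06% of all genes were lower. Without iCT mouse 2 there were 7 lower (Bst2, Cmpk2, Dhx58, Gbp2, Gbp3, Ifit2 and Usp18) and 2 higher (Ddx58 and Ifit3), where 15.9% and 8.9% of all genes were. Without iCT mouse 1 there were 1 lower (Gbp3) and 1 higher (Rtp4), where 4.15% and 2.11% of all genes were. Without vehicle mouse 3, 4 or 5 or relapse mouse 3, which enters through the shared spread, Gbp3 was the 1 member called lower and 0 were called higher.

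The comparison of relapse with iCT asks what changes between 3 and 10 days after chemotherapy. Gbp3 rose, and Ifit3 and Rtp4, both of which had their highest levels in iCT mice, fell. The osteoclast and macrophage marker sums given above were likewise lower in relapse than in iCT, and their part in these falls was not tested. Of the 42 members 1 was called higher and 2 lower, where 6.62% of all genes were called higher and 3.1% lower. The members split in direction, with 23 positive and 19 negative and a median of 0.06, against 0.16 for all genes. The sign of that median turned without iCT mouse 3 (-0.058) or relapse mouse 1 (-0.030) or 4 (-0.055). Of the 10 GTPase genes 9 were positive with a median of 0.64. Without the shallow iCT mouse 1 again 9 were positive, but the median was 0.36. In that fit it was 0.67 for the Gbp genes and 0.077 for the immunity-related GTPases. The other 32 members were mixed, with 14 positive and 18 negative and a median of -0.12, which was 0.044 without iCT mouse 1 and 0.025 without relapse mouse 3. Every relapse mouse lay above every iCT mouse in 7 members (Irf9, Stat2, Ifih1, Dhx58, Ifit2, Dtx3l and Gbp3), against 16.9% of all genes, and below in 5 (Trim25, Ifit3, Oas1a, Oas2 and Rtp4), against 6.33%. Median-of-ratios scaling moved the median of all genes from 0.16 to 0.06 and quantile normalization to 0.02. Under either scaling 4 members were called lower, with Oas1a and Oas2 added, and 1 higher, where 4.68% and 3.81% of all genes were lower. These 4 members were also the ones called lower without vehicle mouse 1 (3.35% of all genes) or without iCT mouse 3 (4.17%). Stat2 joined Gbp3 among the higher without vehicle mouse 1 (adjusted p = 0.0236) or 3 (adjusted p = 0.0350), and Usp18 did so without iCT mouse 2 (adjusted p = 0.0212).

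Whether the regrown cells returned to the untreated level is asked by relapse against vehicle. By limma, 0 of 42 members were called in either direction, and so were 0% of all genes. At an unadjusted p below 0.05 there were 6 lower and 0 higher members, where 4.16% of all genes were lower and 10.4% higher. The change was negative in 37 of 42 members (88.1%), against 40.6% of all genes, with a median of -0.27 against 0.06. Without single libraries 29 to 39 members were negative, with the fewest without relapse mouse 2. Every relapse mouse lay below every vehicle mouse in Ifit2, Ifit3, Rsad2 and Rtp4 (4.03% of all genes) and above in 0 members (9.72% of all genes). Other fits made calls here. In a fit of these 2 groups alone Ifit3 (-1, SE 0.20, adjusted p = 0.0299) and Rtp4 (-0.97, SE 0.19, adjusted p = 0.0291) were lower, where 1.87% of all genes were. With array weights, which give less weight to libraries that vary more, 6 members were lower (Cmpk2, Ifit3, Irf7, Isg15, Rsad2 and Rtp4), where 2.95% of all genes were. The 3 comparisons share their groups pairwise, so their values are not independent of each other.

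**Figure D3:**
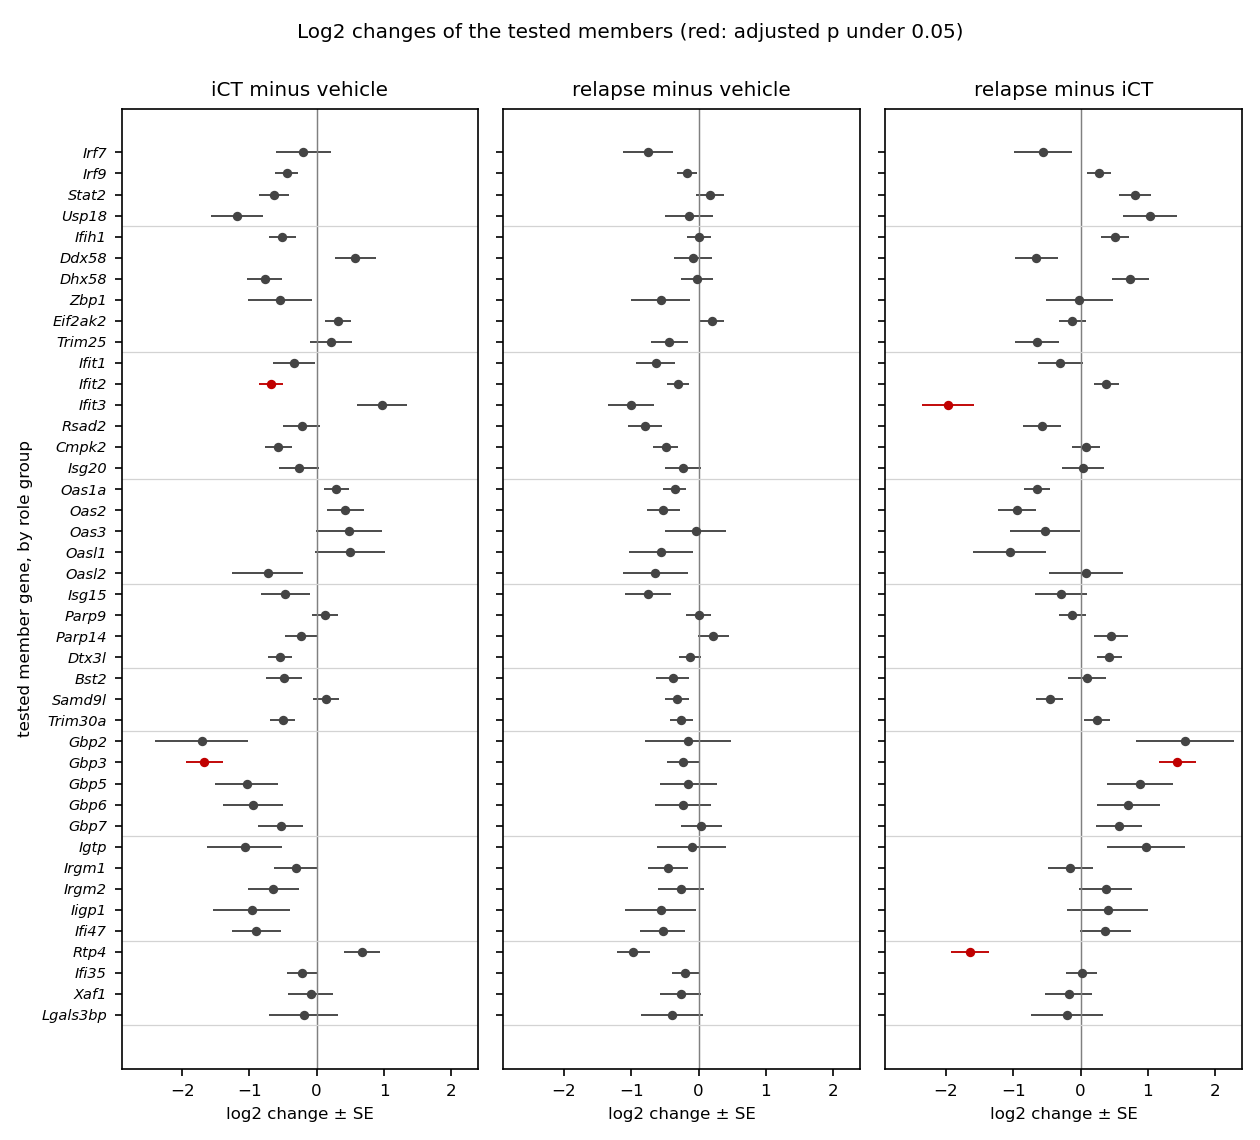
Points give the log2(FPKM + 1) difference of each tested member in the 3 comparisons, with the standard error from limma as bars, ordered by role. Gbp3 is at -1.67 in iCT against vehicle and at 1.44 in relapse against iCT, and Ifit3 and Rtp4 are at -1.97 and -1.64 in relapse against iCT.

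Among the guanylate-binding proteins, Gbp3 (chromosome 3, 142560052 to 142573212, GRCm38) was the clearest case. It stood at 15.6, 34.1, 33.6, 29.3 and 28.2 FPKM in vehicle mice 1 to 5, at 5.51, 10.1 and 8.66 in iCT mice 1 to 3, and at 18.6, 21.1, 21.2 and 34.3 in relapse mice 1 to 4. All iCT mice lay below all others, vehicle mouse 1 included, and the vehicle and relapse mice overlapped. The means were 28.2 ± 7.47 (SD, n = 5), 8.11 ± 2.37 (n = 3) and 23.8 ± 7.11 (n = 4). Gbp3 fell by 1.67 in iCT against vehicle (SE 0.27, adjusted p = 0.00369) and rose by 1.44 in relapse against iCT (SE 0.28, adjusted p = 0.0104), both by limma. The value of iCT mouse 1 rested on 3.81 implied fragments, and without that mouse the 2 differences were -1.44 (adjusted p = 0.0120) and 1.22 (adjusted p = 0.0303). Gbp3 kept both calls under all 22 alternatives tried.

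The other Gbp genes varied more between mice and none passed the test. Gbp2 lies with Gbp5, Gbp7 and Gbp3 in a cluster on chromosome 3 (142496934 to 142638008). Its range was 6.94 to 44.4 FPKM in vehicle, 1.07 to 14.1 in iCT and 7.20 to 40.8 in relapse, so that the groups overlapped. Its difference in iCT against vehicle, -1.71, was the most negative of all members, with an SE of 0.69 (adjusted p = 0.123), and its value in iCT mouse 1 rested on under 1 implied fragment. Gbp5, which promotes inflammasome activity, had means of 3.71 ± 2.5, 0.997 ± 0.321 and 2.94 ± 1.74 in vehicle, iCT and relapse. Gbp6 on chromosome 5 had 2.43 ± 1.56, 0.633 ± 0.295 and 1.93 ± 1.61. Gbp7 had the smallest change in iCT against vehicle of the tested Gbp genes, at -0.53 (adjusted p = 0.293). Gbp9, which was not tested, stood at 0.368 to 1.31 in vehicle and at 0 to 0.71 in iCT. Gbp genes are similar in sequence, and the sources used here do not say how reads were divided between such copies.

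The immunity-related GTPases also had lower means in iCT, and none passed the test. Irgm1, a regulatory member that guards self membranes, had the highest mean of the family. It stood at 18.5, 44.6, 41.1, 32.4 and 29.4 FPKM in vehicle mice 1 to 5, at 26.1, 30.0 and 21.1 in iCT and at 28.2, 13.1, 18.9 and 38.7 in relapse. The groups overlapped fully, and the lowest value belonged to relapse mouse 2. Ifi47 (also called Irg47) stood at 12.1, 30.3, 30.4, 25.3 and 19.2 in vehicle, at 12.6, 14.0 and 8.50 in iCT and at 18.1, 8.71, 11.2 and 29.1 in relapse. Its difference in iCT against vehicle was -0.90 (SE 0.36, adjusted p = 0.122), and vehicle mouse 1 lay among the iCT mice. Igtp, which encodes Irgm3, had a mean of 24.6 ± 9.71 in vehicle and 12.5 ± 8.10 in iCT, with 41.6 in relapse mouse 4 and 10.2 in relapse mouse 2. Irgm2, its neighbour, had 14.1 ± 4.73 and 8.69 ± 3.61. Iigp1, an effector GTPase that coats parasite vacuoles, ranged from 0.0512 in vehicle mouse 1 to 4.64 in vehicle mouse 2, and was listed at 0 in iCT mouse 1. Igtp, Irgm2 and Iigp1 had adjusted p values of 0.213 to 0.270 in iCT against vehicle.

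**Figure D4:**
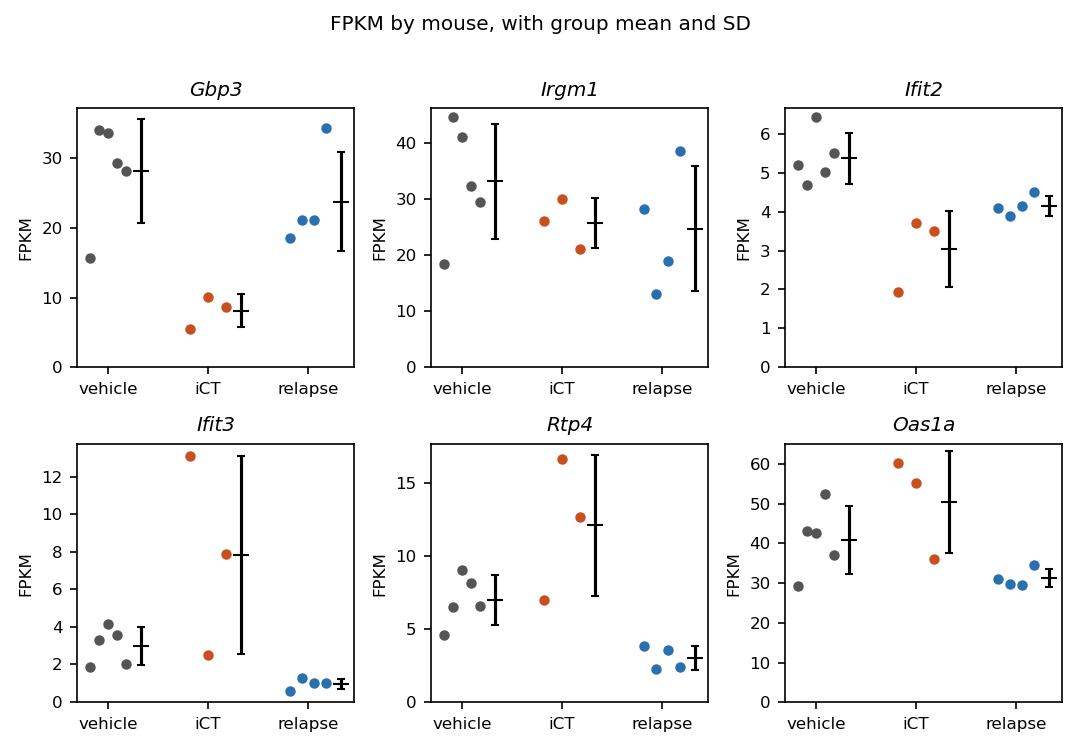
FPKM of 6 members in each mouse, with the group mean and SD as bars. For Gbp3 all 3 iCT mice (5.51 to 10.1) lie below all others, for Rtp4 all 4 relapse mice (2.30 to 3.88) lie below all others, and for Irgm1 the groups overlap.

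Of the genes of ISGF3 and its feedback, none passed the test. Irf9, the DNA-binding subunit, stood at 16, 25.6, 29.0, 26.1 and 22.7 FPKM in vehicle, at 18, 17.9 and 15.0 in iCT and at 20.5, 18.7, 20.7 and 23.1 in relapse. Vehicle mouse 1 was again within the iCT range and the other vehicle mice above it, and the difference was -0.45 (SE 0.17, adjusted p = 0.101). Stat2 stood at 4.05, 7.30, 10.5, 7.48 and 5.87 in vehicle, at 4.59, 3.88 and 3.55 in iCT and at 9.11, 6.61, 7.12 and 8.22 in relapse. All relapse mice lay above all iCT mice, with a difference of 0.80 (SE 0.24) that missed the threshold at an adjusted p of 0.0505. Irf7, the amplifier of interferon gene transcription, ranged from 7.19 to 27.2 in vehicle, from 9.24 to 21 in iCT and from 6.48 to 16.6 in relapse. Usp18, which removes Isg15 from proteins and dampens the receptor, was listed at 0 in iCT mouse 1, had 3.13 and 1.22 in iCT mice 2 and 3, and had 2.15 to 5.38 in vehicle (-1.18, adjusted p = 0.0718).

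The sensors of RNA and DNA moved in no common direction, with 3 of 6 positive in iCT against vehicle. Dhx58, the regulator LGP2, stood at 6.73, 11, 7.93, 13.1 and 8.05 FPKM in vehicle, at 3.26, 6.23 and 5.75 in iCT and at 8.07, 7.27, 7.62 and 13.9 in relapse. The iCT mice lay below all others, but the difference of -0.77 from vehicle did not pass (SE 0.26, adjusted p = 0.0775). Zbp1, a sensor of Z-form nucleic acids, was the most abundant of the group and spread widely. It stood at 14.5, 53.3, 24.9, 49.7 and 28.6 in vehicle, at 24.9, 28.6 and 12.4 in iCT and at 24.0, 9.45, 18.3 and 41.6 in relapse, and the groups overlapped. Ifih1, which encodes MDA5, averaged 9.44 ± 1.68, 6.27 ± 0.706 and 9.62 ± 2.68. Ddx58, which encodes RIG-I, stood at 18.8 in iCT mouse 1 and at 5.83 and 8.21 in iCT mice 2 and 3, against 4.65 to 8.01 in vehicle. Eif2ak2, which encodes the kinase PKR, had means of 5.12 to 6.88 in the 3 groups, and Trim25 had means of 15.0 to 23.4.

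The Ifit genes encode proteins that bind foreign RNA, and they differed among themselves. Ifit2 (chromosome 19, 34550694 to 34576534) stood at 5.20, 4.68, 6.43, 5.03 and 5.52 FPKM in vehicle, at 1.92, 3.7 and 3.5 in iCT and at 4.09, 3.89, 4.14 and 4.5 in relapse. The 3 groups did not overlap, with vehicle highest and iCT lowest. Ifit2 fell by 0.68 in iCT (SE 0.18, limma adjusted p = 0.0323). The call was lost in 10 of 22 alternatives, with a highest adjusted p of 0.147. Among them were the fits without vehicle mouse 1 (adjusted p = 0.0511), 3 (0.0677), 4 (0.0548) or 5 (0.0699), without iCT mouse 1 (0.0694) and without relapse mouse 3 (0.0501). The value of iCT mouse 1 rested on 3 implied fragments.

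Ifit3 (chromosome 19, 34583529 to 34588982) was highest in iCT and lowest in relapse by group mean. It stood at 1.84, 3.31, 4.15, 3.58 and 2 FPKM in vehicle, at 13.1, 2.51 and 7.85 in iCT and at 0.585, 1.25, 0.994 and 0.972 in relapse. All relapse mice lay below all others, while iCT mouse 2 lay within the vehicle range. The relapse values lay near the filter of 1 FPKM. The value of iCT mouse 1 rested on 9.59 implied fragments, and the lowest count elsewhere was 2.23. Ifit3 fell by 1.97 in relapse against iCT (SE 0.39, limma adjusted p = 0.0104), and this call was lost only in the fit of these 2 groups alone (adjusted p = 0.0540) among 21 alternatives that tested it. Its differences from vehicle, 0.97 in iCT (adjusted p = 0.104) and -1 in relapse (adjusted p = 0.210), did not pass. Its near copy Ifit3b ran in parallel, at 19.4, 1.98 and 9.64 in iCT and 0.786 to 1.38 in relapse, and reads of the pair may have been divided between them.

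The enzymes of the same group had lower means in relapse than in vehicle. Cmpk2, a mitochondrial nucleotide kinase encoded beside Rsad2 on chromosome 12, stood at 13.5, 23.9, 23.7, 18.1 and 16.4 FPKM in vehicle, at 9.66, 14.6 and 13.1 in iCT and at 16.4, 11.1, 11.7 and 13.5 in relapse. Its differences from vehicle were -0.57 in iCT (adjusted p = 0.0918) and -0.49 in relapse (adjusted p = 0.261). Rsad2, which encodes the antiviral enzyme viperin, stood at 1.06 to 3.72 in vehicle and at 0.524 to 0.995 in relapse, with no overlap and an adjusted p of 0.194. Ifit1 averaged 2.76 ± 1.83, 1.82 ± 0.741 and 1.24 ± 0.228, and the exonuclease gene Isg20 7.94 ± 2.4, 6.67 ± 3.51 and 6.53 ± 1.76. All 6 members of this group had negative differences in relapse against vehicle, with a median of -0.56.

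The oligoadenylate synthetases make the second messenger that switches on RNase L. None of the 5 passed the test, and 4 of 5 were positive in iCT against vehicle (median 0.43). That rested on iCT mouse 1, without which 2 of 5 were positive. The median deviation of the family from the vehicle means was 0.73 in that mouse and -0.21 and -0.15 in iCT mice 2 and 3. All 5 were negative in relapse against vehicle (median -0.52). Oas1a stood at 29.3, 43.1, 42.5, 52.4 and 37.0 FPKM in vehicle, at 60.4, 55.2 and 36.0 in iCT and at 31.1, 29.9, 29.6 and 34.5 in relapse. All iCT mice lay above all relapse mice, with a difference of -0.64 in relapse against iCT (SE 0.20, adjusted p = 0.0577). Oas2 stood at 1.03, 2.04, 3.59, 2.4 and 1.39 in vehicle, at 3.94, 3.18 and 2.08 in iCT and at 0.855, 0.688, 1.40 and 1.43 in relapse. Again iCT lay above relapse throughout (-0.95, SE 0.28, adjusted p = 0.0521). Oas3 and Oasl1 were highest in iCT mouse 1, at 13.3 and 17.5, and stood at 2.84 and 2.4 in iCT mouse 2. Oasl2 went the other way, with a mean of 5.03 ± 2.54 in vehicle and 2.31 ± 0.910 in iCT. The Oas1 genes are a family of near copies on chromosome 5.

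Isg15, the ubiquitin-like modifier, stood at 10.4, 23.6, 29.0, 33.7 and 20.6 FPKM in vehicle, at 26.0, 13.9 and 10.3 in iCT and at 18.7, 8.51, 10.7 and 14.6 in relapse. The groups overlapped, and its differences from vehicle were -0.46 in iCT (adjusted p = 0.407) and -0.75 in relapse (adjusted p = 0.333). Dtx3l, a ubiquitin ligase that works with Parp9, stood at 8.53, 10.6, 15.8, 10.4 and 11.2 in vehicle, at 6.30, 7.68 and 7.82 in iCT and at 10.0, 8.51, 10.1 and 11.9 in relapse. The iCT mice lay below all others, with a difference of -0.55 from vehicle (SE 0.18, adjusted p = 0.0691). Parp9 had means of 8.04, 9.01 and 8.06 and overlaps Dtx3l in the annotation, and the sources used here do not say whether counting used strand. Parp14, an ADP-ribosyltransferase, had means of 2.54 to 3.84.

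Of the restriction factors, Bst2 stood at 76.3, 163, 146, 175 and 115 FPKM in vehicle, at 68.2, 143 and 80.6 in iCT and at 95, 95.2, 89.1 and 119 in relapse. The groups overlapped, with vehicle mouse 1 among the lowest, and the difference in iCT against vehicle was -0.49 (SE 0.27, adjusted p = 0.243). Trim30a, a ubiquitin ligase that restrains innate signalling, stood at 9.55, 12.5, 16.1, 14.9 and 9.72 in vehicle, at 7.75, 9.71 and 7.82 in iCT and at 10.5, 8.77, 9.37 and 12.2 in relapse. It missed the threshold in iCT against vehicle (-0.50, SE 0.19, adjusted p = 0.0976). Samd9l, a brake on translation and growth in myeloid cells, averaged 5.60 ± 0.995, 6.23 ± 0.527 and 4.36 ± 1.27. Mx1, a dynamin-like antiviral GTPase, was at or below 0.794 in all libraries.

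Of the other members, Rtp4 (chromosome 16, 23609919 to 23614222) encodes a chaperone of receptors at the membrane. Like Ifit3, it was highest in iCT and lowest in relapse by group mean, but its iCT mice ranked in the opposite order. It stood at 4.60, 6.53, 9.06, 8.17 and 6.59 FPKM in vehicle, at 7.01, 16.6 and 12.7 in iCT and at 3.88, 2.30, 3.61 and 2.43 in relapse. All relapse mice lay below all others, and 2 of the 3 iCT mice lay above all vehicle mice. Rtp4 fell by 1.64 in relapse against iCT (SE 0.28, limma adjusted p = 0.00527), a call kept under all 22 alternatives. Its difference in iCT against vehicle was 0.67 (adjusted p = 0.116) and passed without iCT mouse 1 (0.99, adjusted p = 0.0300), whose value rested on 4 implied fragments. Its difference in relapse against vehicle was -0.97 (adjusted p = 0.173). Ifi35, a partner of Nmi, stood at 29.3, 48.0, 30.3, 48.2 and 34.4 in vehicle, at 24.9, 43.4 and 29.8 in iCT and at 36.8, 25.8, 29.4 and 39.0 in relapse, with no separation. Lgals3bp, a secreted galectin ligand, ranged from 13.6 to 57.7 in vehicle and from 12.7 to 68.6 in relapse, where mouse 4 was the highest. Xaf1, an antagonist of an apoptosis inhibitor, averaged 4.52 ± 0.992, 4.60 ± 3.02 and 3.77 ± 1.82.

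The ligands were near absent from these libraries. Of the 7 interferon genes listed 6 were at 0 in all 12 libraries, and Ifng was at 0 in 11 and at 0.104 FPKM in relapse mouse 2. The receptors were expressed. Ifngr1, the ligand-binding chain for interferon gamma, averaged 182 ± 15.9 in vehicle, 126 ± 7.91 in iCT and 167 ± 17.4 in relapse. It was 118 to 134 in iCT and 164 to 202 in vehicle, without overlap. Ifngr1 fell by 0.52 in iCT (SE 0.10, limma adjusted p = 0.00930). It rose by 0.40 in relapse against iCT (adjusted p = 0.0349), which was lost in 11 of 22 alternatives, both scalings and the fits without vehicle mouse 5, iCT mouse 1 or relapse mouse 1, 2 or 4 among them (adjusted p up to 0.156). Of the 5 receptor genes tested it was the 1 called in either comparison with iCT. Of all genes 6.31% were called lower in iCT against vehicle and 6.62% higher in relapse against iCT. The type I receptor chains also had their lowest means in iCT, without passing. Ifnar2 averaged 74.0 ± 6.28, 46.4 ± 21.1 and 71.0 ± 7.25 (adjusted p = 0.0653 in iCT against vehicle), and Ifnar1 7.13 ± 0.954, 5.79 ± 3.15 and 9.37 ± 1.04. Ifngr2 and Il10rb differed by at most 0.13 in any comparison (adjusted p of at least 0.645).

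Of 13 genes of signalling and transcriptional control, all tested, 2 fell and 1 rose in iCT against vehicle. Of all genes 6.31% were called lower there and 3.31% higher. Irf8, which drives the monocyte and dendritic lineage and also serves interferon gamma responses, stood at 27.8, 60.2, 49.5, 38.1 and 37.9 FPKM in vehicle, at 9.10, 8.67 and 10.1 in iCT and at 26.6, 71.4, 49.3 and 59.0 in relapse. All iCT mice lay below all others. Irf8 fell by 2.04 in iCT (SE 0.29, adjusted p = 0.00158, limma) and rose by 2.27 in relapse against iCT (SE 0.30, adjusted p = 0.00160), and both calls held in all 22 alternatives. The monocyte marker sums given above were likewise lowest in iCT, and their part in this difference was not tested. Irf5 fell by 1.46 in iCT (adjusted p = 0.0186), which did not pass without iCT mouse 1 (adjusted p = 0.0612). Socs3, an inhibitor of cytokine receptors, rose from 0.414 ± 0.249 to 3.45 ± 2.89 (1.47, adjusted p = 0.0231), with 6.67 in iCT mouse 1. It met the filter only through the iCT mice, the group where it was high. No fit that left out an iCT mouse tested it, so its calls could not be checked that way. Irf1, an early interferon target, averaged 35.9 ± 11.6, 19.8 ± 7.52 and 34.9 ± 12.6 and did not pass (adjusted p = 0.145), and Stat3, Irf3 and Ptpn6 had adjusted p values of 0.279 to 0.910.

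In relapse against iCT 3 genes of this list rose (Irf2, Irf5 and Irf8) and 1 fell (Socs3). Of all genes 6.62% were called higher there and 3.1% lower. Irf2, a competitor of Irf1, averaged 6.95 ± 3.32 in iCT and 13.3 ± 0.578 in relapse (0.93, adjusted p = 0.0205), a call lost in 5 of 22 alternatives, without relapse mouse 1 or 3 among them (adjusted p up to 0.102). Irf5 rose by 1.20 (adjusted p = 0.0446), a call lost in 14 of 22, both scalings and the fits without vehicle mouse 3, 4 or 5, iCT mouse 1 or 2 or relapse mouse 2, 3 or 4 among them (adjusted p up to 0.211). Socs3 fell by 1.5 (adjusted p = 0.0249), lost in 5 of the 18 alternatives that tested it, without relapse mouse 1, 2 or 3 among them (adjusted p up to 0.105). In relapse against vehicle 0 of the 13 passed. At an unadjusted p below 0.05 there were 3 higher and 0 lower, where 10.4% of all genes were higher and 4.16% lower.

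**Figure D5:**
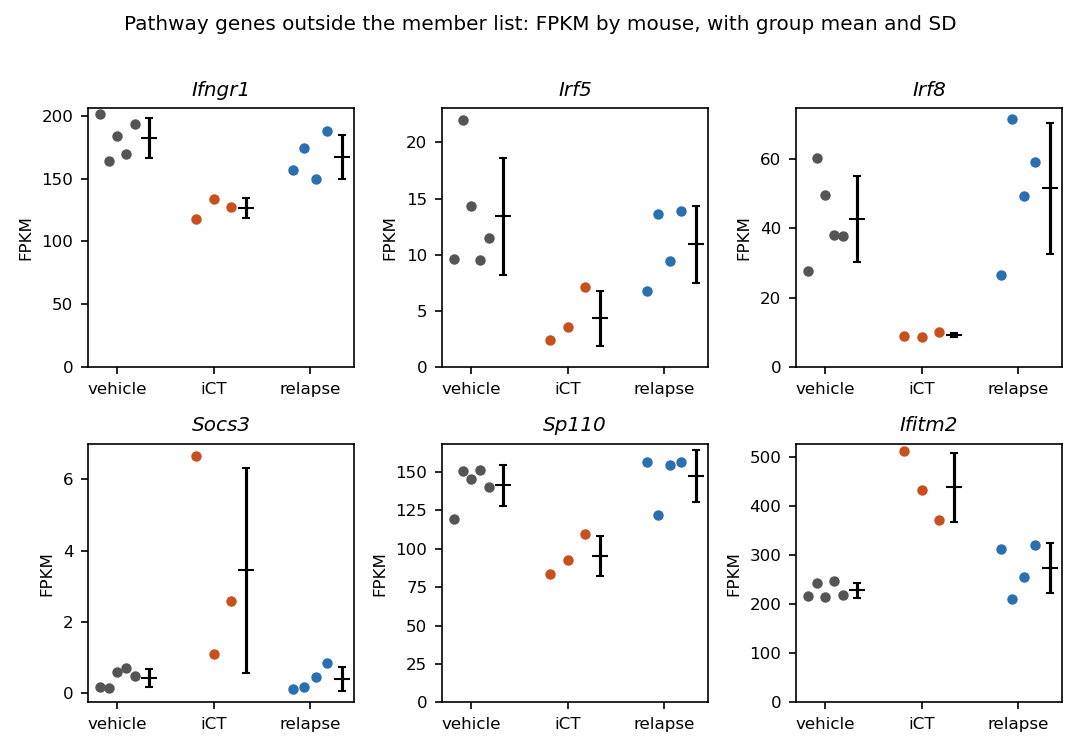
FPKM of 6 pathway genes outside the 46 members in each mouse, with the group mean and SD as bars. Irf8 is at 8.67 to 10.1 in iCT and at 26.6 or above elsewhere, and Ifitm2 is at 372 to 512 in iCT against 211 to 320 elsewhere.

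Of 15 genes that sense nucleic acids or relay that signal, 14 were tested and 1 passed. Of all genes 6.31% were called lower in iCT against vehicle and 6.62% higher in relapse against iCT. Tlr9, the endosomal receptor for DNA, averaged 2.44 ± 1.18 FPKM in vehicle, 0.403 ± 0.374 in iCT and 3.54 ± 1.67 in relapse, and was listed at 0 in iCT mouse 1. Tlr9 fell by 1.27 in iCT (adjusted p = 0.0337) and rose by 1.65 in relapse against iCT (adjusted p = 0.0140). The fall was lost in 9 of 21 alternatives, without vehicle mouse 2, 4 or 5 or iCT mouse 1 among them (adjusted p up to 0.115). The most abundant others, the adaptors Myd88 and Tmem173 (STING) and the nucleases Trex1 and Samhd1, had adjusted p values of 0.0623 to 0.460 in iCT against vehicle.

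Of 55 further interferon-stimulated genes 54 were found, all but Trim5, and 48 were tested. In iCT against vehicle 3 rose and 3 fell, where 3.31% of all genes were called higher and 6.31% lower. The median was -0.30 against -0.08 for all genes, and 33 of 48 (68.8%) were negative against 58.2%. The risers were 2 genes of the interferon-induced transmembrane proteins, which block virus entry, and Oas1c. Ifitm2 stood at 216 to 248 FPKM in vehicle, at 512, 432 and 372 in iCT and at 211 to 320 in relapse. Ifitm2 rose by 0.93 (SE 0.14, adjusted p = 0.00262) and fell by 0.68 in relapse against iCT (adjusted p = 0.0156). Ifitm1 rose from 3.5 ± 2.08 to 13.1 ± 3.38 (1.78, adjusted p = 0.0175), while Ifitm3, at 77.2 ± 31.6, 62.1 ± 18.8 and 39.7 ± 16.5, did not pass. Oas1c rose by 1.13 (adjusted p = 0.0281), a call lost in 7 of 21 alternatives, without vehicle mouse 2, 3 or 5 or iCT mouse 1 among them (adjusted p up to 0.109).

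The genes of that list that fell were the nuclear body genes Sp100 and Sp110 and the ADP-ribosyltransferase Parp11. Sp110 averaged 141 ± 13.2 FPKM in vehicle, 95.2 ± 13.2 in iCT and 147 ± 17.0 in relapse, and all iCT mice lay below all others. Sp110 fell by 0.57 in iCT (adjusted p = 0.0150) and rose by 0.63 in relapse against iCT (adjusted p = 0.0126). Sp100, which has near copies on chromosome 1, fell by 0.68 (adjusted p = 0.0155) and rose by 0.72 (adjusted p = 0.0141). Parp11 fell by 0.72 in iCT (adjusted p = 0.0114) and stood at 3.24 to 4.44 in relapse, below all vehicle mice (4.71 to 5.86). In relapse against iCT 2 genes of this list rose, the Sp genes, and 2 fell, Ifitm2 and Ifit3b. Of all genes 6.62% were called higher there and 3.1% lower. Ifit3b fell by 2.11 (adjusted p = 0.0208), a call lost in 5 of 21 alternatives, without iCT mouse 1 or relapse mouse 1 or 4 among them (adjusted p up to 0.0892). In relapse against vehicle 0 of the 48 passed in limma, with a median of -0.25 against 0.06 for all genes. At an unadjusted p below 0.05 there were 3 higher and 8 lower, where 10.4% of all genes were higher and 4.16% lower. The abundant Ifi27, Slfn2 and Lgals9 passed in no comparison, with means of 149 to 184, 50.7 to 75.5 and 134 to 165 over the groups. Some calls of the pathway genes missed the threshold when only the groups compared were fitted. In iCT against vehicle these included Ifitm1 (adjusted p = 0.0556), Parp11 (0.0522) and Socs3 (0.0722). In relapse against iCT they included Ifitm2 (0.0791), Sp100 (0.0642), Sp110 (0.0564) and Tlr9 (0.0519). With array weights Sp110 missed it in both comparisons (0.0877 and 0.0837), as did Irf5 (0.129 and 0.211).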

How the data were processed

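Per the labels' protocols, RNA came from an RNeasy micro kit (Qiagen) and library preparation used NEB kits. The authors deposited 1 Cufflinks table of FPKM per mouse, with 95% intervals, per the file headers, and STAR, Cufflinks and mm9 are named in the submitters' processing notes without versions. All 46 members overlapped the RefSeq GRCm38.p6 gene of their name and 36 shared its start or end, so coordinates are GRCm38. The tables held 24883 entries, and 2 with a failed estimate were left out. The fragments behind each FPKM were implied from its interval, taken as an estimate ± 2 SE with Poisson error. Of low values 44.6% to 47.1% per library came out whole within 0.02, so no count test was run.

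Values were analysed as log2(FPKM + 1), a pseudocount of 1, with limma 3.58.1 in R 4.3.3 in 1 model of the 12 libraries that held only group, with a variance trend, after tests on simulated data. Alternatives were other pseudocounts and filters, 2 scalings, array weights (statmod 1.5.0), no trend, a replicate block, the groups compared alone, and each library left out. Groups came from the titles. Members, gene lists and roles were chosen with earlier results of these data known. Values in every mouse are given for members past the threshold and, per role, the most abundant member and that with the smallest p (18 members). For the pathway lists the called genes and up to 4 abundant others are given. A gene of these lists is not reported here. The proteins were not analysed here.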

Additional observations from a re-analysis of the deposited data

Results flagged for a closer look

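For 18 members and 3 summaries of the members, the values of the vehicle and relapse mice were checked for a mouse far from the rest (42 groups), where chance sets about 1 in 20 apart. In 2 groups a mouse stood apart, and in both it was relapse mouse 4. Its Gbp3 level was 34.3 FPKM, with the other relapse mice at 18.6 to 21.2. Its Dhx58 level was 13.9 FPKM, with the other relapse mice at 7.27 to 8.07. The relapse difference of Dhx58 from vehicle, -0.03, changed sign without relapse mouse 1, 2 or 3 or vehicle mouse 2 or 4. The erythroid and monocyte marker sums were also highest of the relapse mice in this mouse, at 164 and 2009, and their part was not tested.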

How the results depend on the processing

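Each comparison was recomputed under 22 alternatives. In iCT against vehicle 1 member was called lower (Gbp3) with no filter, array weights, a replicate block or only the groups compared, and without single libraries the count was 1 to 7 lower and 0 to 2 higher. In relapse against vehicle 6 were lower with array weights, 2 in the fit of the groups alone, and 0 in every leave-one-out fit. In relapse against iCT 1 was lower with a filter at an FPKM of 5 or with the groups alone, 4 with median-of-ratios scaling or quantile normalization, 2 higher without the variance trend, and 2 to 4 lower and 1 to 2 higher without single libraries. The medians of the members kept to within the spread of libraries, but the median in relapse against iCT, 0.06, was -0.045 with the block, -0.047 and -0.062 with the scalings, and -0.058 to 0.20 without single libraries. Small differences changed sign in relapse against iCT. Cmpk2 (0.08) was at -0.027 with median-of-ratios scaling, -0.043 with quantile normalization and -0.074 with array weights. Bst2 (0.10) was at -0.017 with median-of-ratios scaling and -0.0097 with the block. Ifi35 (0.02) was at -0.094, -0.023, -0.11 and -0.080 under the scalings in that order, array weights and the block, and Zbp1 (-0.02) at 0.032 with array weights. The causes were not tested. Without single libraries the ranges were -0.23 to 0.090 for Dhx58 in relapse against vehicle, and in relapse against iCT -0.36 to 0.33 for Zbp1, -0.076 to 0.20 for Cmpk2, -0.56 to 0.066 for Isg15, -0.12 to 0.41 for Bst2, -0.15 to 0.24 for Ifi35 and -0.39 to 0.11 for Irgm1. The mouse numbers were not taken to pair mice. Deviations of same-numbered libraries correlated at -0.09 to 0.10 across genes and those of different numbers at -0.12 to 0.15. With 3 to 5 mice per group these correlations cannot decide whether same-numbered mice shared a donor or batch. With the replicate block Gbp3, Ifit3 and Rtp4 kept their calls, Ifit2 did not (adjusted p = 0.147), and of the pathway genes Irf8 and Ifitm2 kept calls in both comparisons with iCT, Oas1c in iCT against vehicle and Tlr9 in relapse against iCT. Depth limits iCT mouse 1 most, where Gbp2, Gbp6, Usp18 and Iigp1 rested on under 1 implied fragment.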
